A study of Rattus norvegicus with 8 samples.

Results

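Nanoceria-treated rat H9c2 cells kept aboard the International Space Station were compared with nanoceria-treated H9c2 cells kept on the ground. The comparison rests on 5 of the 8 arrays of the study, which are 2 arrays of treated cells in space and 3 arrays of treated cells on the ground, chosen by their titles alone. It is described over the 15049 of 23188 probe sets that carry a gene symbol here, which stand for 15037 genes. All 5 cultures received 100 µg/ml of cerium oxide nanoparticles coated with serum, in a differentiation medium low in serum, so the nanoparticles are shared by both groups and are not what was compared. The other 3 arrays, 1 of untreated cells in space and 2 of untreated cells on the ground (replicates 1 and 3), share no array with this comparison and are given beside it.

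H9c2 is a single established line of myoblasts from embryonic rat heart, and the cells are no adult cardiomyocytes. Cells were seeded at 35000 per square centimetre on coverslips, carried in a pouch preheated to 27 °C, placed in an incubator at 37 °C on arrival at the station on day 7 and fixed on day 10. In orbit the medium changes ran automatically. The ground units followed later, were worked by hand and replayed the temperatures logged in flight, so gravity, launch, radiation and culture run cannot be told apart. The labels give each array its own sample but do not tie it to a named culture, so a p-value here covers only the scatter among these samples, which may be technical.

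H9c2 cells proliferate as myoblasts and, when serum is withdrawn, can fuse and switch on sarcomere, acetylcholine receptor and sarcoplasmic reticulum genes of skeletal muscle. Nanoceria cycles between oxidation states of cerium and is studied as a scavenger of reactive oxygen species. Low oxygen stabilises the transcription factor HIF, which binds a short motif in promoters and raises glycolytic enzymes, angiogenic factors and mitophagy genes. Actin and microtubules carry the mechanical load of a cell and are the structures usually examined when gravity is changed.

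Muscle markers of the labelled line were present, although levels of different probe sets are not comparable. Of 8 markers of skeletal myoblasts and myotubes, 7 were measured and 6 lay above the median probe set (log2 intensity 6.8), with a median of 8.48. The list mean was 7.7 and 8.12 in the space arrays and 8.25 to 8.54 in the ground arrays. Fibroblast markers had a median of 10.13, with 7 of 10 above the median probe set, cardiomyocyte markers of 6.31, with 1 of 4, and endothelial, macrophage, adipocyte, neuronal and epithelial markers of 5.3 to 5.71. The 8 arrays had median intensities of 107 to 117, and the number of arrays limits the precision.

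The space pair was the most alike. Across probe sets (not replicates of anything), Pearson's r was 0.991 for that pair and 0.975 to 0.985 for the ground pairs. Ground replicate 2 lay nearest to the space arrays (r = 0.987 with both), against 0.972 to 0.975 for ground replicates 1 and 3. It was the ground array closest to the space mean for 43.7% of genes. The median SD of a probe set was 0.11 between the 2 space arrays and 0.22 among the 3 ground arrays. An SD from 2 arrays tends to lie below one from 3, so these values are not directly comparable. For many of the lists whose counts or direction turned on 1 array, values without it are given. Lists without such values were not all stable, and 21 of 50 list medians changed sign under some setting. Leaving out a space array also lowers the count over all probe sets, to 724 higher and 422 lower without replicate 1 and to 818 and 337 without replicate 2.

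Of 23188 probe sets, 0 (0.0%) passed an adjusted p of 0.05 in limma's moderated test of space minus ground, and the smallest adjusted p was 0.193. At an unadjusted p under 0.05, 1409 probe sets (6.08%) were higher in space and 928 (4.0%) were lower, where 1159 in all would be counted by chance alone if every probe set were unchanged. Both space arrays lay above all 3 ground arrays for 3158 probe sets (13.6%) and below all 3 for 4074 (17.6%). No gene is therefore called changed, and the values that follow are differences with their standard errors (SE), in log2 intensity, space minus ground. Each gene list is set against these shares and against the median difference over all genes, which was -0.064, with 39.6% of genes above 0.

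The sizes were not symmetric. Among the 15037 genes, 259 were higher in space by at least 1 on the log2 scale and 29 were lower by at least that much. The largest positive difference was 2.96 and the largest negative one was -1.74. The list medians ran from 0.84 for hypoxia-induced genes and 0.34 for centrosome and cilium genes to -0.29 for sarcomere genes and -0.32 for tubulins.

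The gene with the smallest p was Rock2, a kinase that phosphorylates myosin light chain phosphatase and drives actomyosin contraction. Its log2 intensity was 8.69 and 9.03 in the space arrays and 6.76, 6.74 and 6.37 in the ground arrays. Both space arrays stood well clear of the ground arrays, by 2.24 ± 0.20 (SE), or 4.72-fold (limma adjusted p = 0.193). Over the 5 arrays alone, an exact permutation test of Rock2 (10 relabelings, two-sided) gave p = 0.2, the smallest this design allows.

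Next came Nek1, a kinase of centrosomes and cilia that also acts in DNA damage signalling. It read 6.43 in both space arrays and 4.90, 4.76 and 5.02 on the ground, a difference of 1.53 ± 0.15 (limma adjusted p = 0.193). Arhgap12, a GTPase-activating protein, read 6.59 and 6.54 against 5.22, 5.24 and 5.30, or 1.31 ± 0.14. The replicates of both genes lay closely together in each group, which choosing genes by small p favours.

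Ift74, a core subunit of the particle that carries cargo along cilia, read 8.11 and 7.66 in space and 5.81, 6.05 and 6.21 on the ground (1.86 ± 0.21). Pcm1, the scaffold of centriolar satellites, read 8.84 and 8.59 against 7.24, 7.56 and 7.19 (1.38 ± 0.18). Orc2, a subunit of the origin recognition complex, read 7.58 and 7.63 against 6.38, 6.45 and 6.10 (1.29 ± 0.17). In all of these the space arrays were the higher ones without overlap. Krit1, an endothelial and integrin-linked adaptor, read 9.10 and 9.09 against 7.24, 7.81 and 7.24 (1.67 ± 0.22), with ground replicate 2 the nearest to space.

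The other genes among the 14 with the smallest p on the higher side were Trmt13 (a tRNA methyltransferase, 1.32), Zfp317 (1.70), Taf1 (the largest subunit of the general transcription factor TFIID, 1.96), Cenpq (a kinetochore protein, 1.34), Zcchc7 (1.87), Alcam (a cell adhesion molecule, 1.25) and Vps13a (a lipid transfer protein, 1.43). Their adjusted p was 0.193 throughout, and in every one both space arrays lay above all ground arrays, as the rule that named them required.

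**Figure D1:**
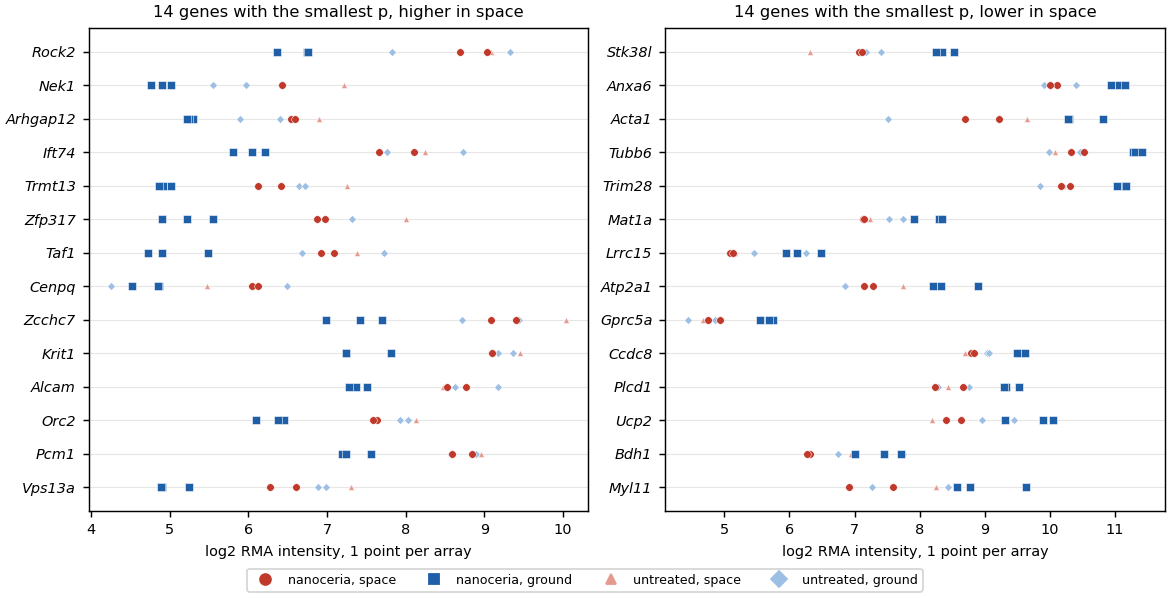
Log2 RMA intensity (horizontal axis) of the 14 genes with the smallest p in each direction among genes whose groups did not overlap (rows), 1 point per array. Red circles are treated cells in space, dark blue squares treated cells on the ground, and the pale marks untreated cells. Rock2 read 8.69 and 9.03 in space and 6.37 to 6.76 on the ground, and the untreated ground arrays (9.32 and 7.82) lay above the treated ground arrays.

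The untreated arrays are set beside these values as levels. Rock2 read 9.08 in the untreated space array and 9.32 and 7.82 in the untreated ground arrays. Ift74 read 8.25 in untreated space and 8.73 and 7.76 on the untreated ground, and Orc2 read 8.13 against 8.03 and 7.93. For these 3 genes the treated ground arrays were the lowest of all 8, and both untreated ground arrays lay above them. Nek1 was an exception in degree, with 7.22 in untreated space and 5.55 and 5.97 on the untreated ground.

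The untreated cells gave a space minus ground difference of 0.51 for Rock2, 0.01 for Ift74, 0.15 for Orc2 and 1.47 for Nek1. Over all genes, the treated and the untreated difference, which share no array, had a Pearson's r of 0.33 and the same sign in 59.7% of genes, given as a description since genes are not independent. The difference between the treated and the untreated difference (the interaction, from limma on all 8 arrays) was called for 0 probe sets (0.0%) after adjustment and had an unadjusted p under 0.05 for 545 (2.35%). Of the genes with a higher treated difference, those with the smallest interaction p were Ccdc62 (interaction 2.37), Alcam (1.68), Hltf (1.84) and Xdh (1.40), all with a limma adjusted p of 1.0. On the other side they were Atp2a1 (-2.02), Fam161a (-1.52), Cth (-1.30) and Rab38 (-1.16). Alcam read 8.76 and 8.52 in treated space, 7.28, 7.37 and 7.51 on treated ground, 8.47 in untreated space and 8.62 and 9.17 on untreated ground. Hltf, a helicase-like remodeller that acts at stalled replication forks, read 7.68 and 7.29, then 5.99, 5.69 and 5.21, then 7.33, and then 7.38 and 7.25. In both genes the treated ground arrays were the lowest of all. Xdh, xanthine dehydrogenase, overlapped between the treated groups, and its interaction came from the untreated side (-1.59).

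Among 39 measured genes of the centrosome and the cilium, 33 were higher in space and 6 were lower, with a median of 0.34. An unadjusted p under 0.05 was reached by 17 on the higher side and 0 on the lower, or 43.6% against the 6.08% of all probe sets, and by 10 when either space array was left out. Both space arrays were above all ground arrays for 20 of them (51.3%) and below for 2. The list was drawn up with earlier results of these data known, so its direction is not independent evidence. By role, the intraflagellar transport proteins ran from Ift74 (1.86 ± 0.21) and Ift80 (1.50 ± 0.36) over Ift20 (0.58 ± 0.20) to Ift27 (-0.39 ± 0.29).

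The distal appendages of the mother centriole, which anchor it to the membrane, were represented by Cep83 and Sclt1. Cep83 read 8.21 and 7.66 in space and 6.50, 6.74 and 6.45 on the ground (1.37 ± 0.21). Sclt1 read 6.63 and 6.39 against 5.36, 5.59 and 5.28 (1.10 ± 0.17). Both space arrays of both genes lay above every ground array. Ofd1, a protein of centrioles and satellites, read 7.85 and 7.77 against 6.02, 6.86 and 6.29 (1.42 ± 0.26), and Cep57, a pericentriolar protein, 8.11 and 8.01 against 6.86, 7.30 and 6.93 (1.03 ± 0.19).

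Members of the BBSome and of its chaperones, which sort membrane proteins of the cilium, were uneven, with 0.73 ± 0.21 for Bbs7, 0.62 ± 0.25 for Bbs4, 0.51 ± 0.15 for Bbs5 and 0.00 ± 0.18 for Bbs10. Kif3a, a motor subunit of ciliary transport, differed by 0.57 ± 0.20 and its partner Kif3b by 0.22 ± 0.19. In the untreated cells the list median was 0.086. Relative to the mean of the 5 treated arrays, the list median was 0.23 and 0.24 in the space arrays, -0.19, -0.05 and -0.18 in the ground arrays, 0.28 in untreated space and 0.14 and 0.31 on the untreated ground. The 3 treated ground arrays were the lowest of all 8.

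The largest differences of bright genes (mean log2 of at least 7) whose groups did not overlap were led by a target of HIF. Ero1a, the oxidase that drives disulfide formation in the endoplasmic reticulum, read 10.67 and 11.21 in space and 7.02, 10.05 and 6.86 on the ground. Space lay above all ground arrays, by 2.96 ± 0.93 (limma adjusted p = 0.41), but ground replicate 2 stood far nearer to the space arrays than to the other ground arrays. Stc1, a secreted glycoprotein induced by low oxygen, read 9.11 and 9.67 against 6.89, 8.85 and 6.71 (1.91 ± 0.63), with ground replicate 2 again the high one. The others of the 8 genes so named, besides Rock2, were Mybl1 (1.90), Zcchc7 (1.87), Cops2 (1.84), Bnip3 (1.84) and Ppp4r3b (1.82).

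Of 28 measured hypoxia-induced genes outside glycolysis, 24 were higher in space and 4 were lower, with a median of 0.84. The unadjusted p was under 0.05 for 9 on the higher side (32.1%, against 6.08% of all probe sets) and for 0 on the lower. Both space arrays were above all ground arrays for 12 (42.9%, against 13.6%) and below for 0. Without ground replicate 2 the median was 1.1, with 26 higher and 18 under 0.05. Without ground replicate 1 the median was 0.51 and without ground replicate 3 it was 0.65, each with 3 under 0.05. Without space replicate 1 it was 1.1 with 5 under 0.05, without space replicate 2 it was 0.63 with 0, and with array weights it was 0.45 with 5.

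Sequences just upstream of 2 members are shown because HIF binds the core ACGTG or GCGTG in promoters. Each holds the bases before the annotated start, 5′ to 3′ along the gene, from RefSeq's annotation of GRCr8. Capitals mark either core on either strand, so a core read from the other strand appears as its reverse complement, and a palindromic match counts on both. Bnip3 is a mitophagy receptor of the outer mitochondrial membrane (chr1:203154963-203155212, minus strand), and Ankrd37 an ankyrin repeat protein (chr16:53001257-53001506, plus strand).
Bnip3: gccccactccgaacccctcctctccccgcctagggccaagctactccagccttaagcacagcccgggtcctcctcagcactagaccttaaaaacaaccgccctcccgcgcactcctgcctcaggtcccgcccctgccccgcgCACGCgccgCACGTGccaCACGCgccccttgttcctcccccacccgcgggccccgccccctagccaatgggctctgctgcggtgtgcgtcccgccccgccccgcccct
Ankrd37: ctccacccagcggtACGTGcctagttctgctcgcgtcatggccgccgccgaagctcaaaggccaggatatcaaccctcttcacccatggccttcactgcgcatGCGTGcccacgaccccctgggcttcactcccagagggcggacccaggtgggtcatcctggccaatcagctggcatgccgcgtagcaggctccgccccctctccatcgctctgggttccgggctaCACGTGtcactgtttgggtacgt

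Each of these windows holds 4 matches. Those of other genes searched the same way hold 4 for Ldha, 3 for Higd1a, 2 for P4ha1 and 0 for Adm and Kdm3a. ACGTG was found upstream of 11 of 24 hypoxia-induced genes with a sequence here (45.8%) and of 8 of 19 glycolytic genes (42.1%), against 19.3% of the 12435 genes on the array with one. GCGTG was found in 37.5%, 42.1% and 36.3% of the same sets. The matches describe letters and are no evidence of binding in these cells.

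Bnip3 read 11.50 and 12.00 in space and 9.06, 11.08 and 9.59 on the ground (1.84 ± 0.56, limma adjusted p = 0.398). Ankrd37 read 6.86 and 7.89 against 5.96, 6.98 and 5.67 (1.17 ± 0.46), so that ground replicate 2 passed the lower space array. Among secreted factors, Adm, the vasodilator adrenomedullin, read 10.52 and 11.00 against 9.17, 10.22 and 9.28 (1.20 ± 0.35). Vegfa, the main angiogenic growth factor, read 11.99 and 12.07 against 10.43, 11.47 and 11.25 (0.98 ± 0.31). Space was above every ground array in both, and ground replicate 2 was the highest ground array.

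Metabolic members were also higher in space. Higd1a, a mitochondrial protein induced by low oxygen, differed by 1.47 ± 0.52, Gbe1, the glycogen branching enzyme, by 1.30 ± 0.45, and Pdk1, a kinase that holds pyruvate dehydrogenase inactive, by 1.85 ± 0.80. Pdk1 read 10.24 and 10.74 in space and 8.10, 10.39 and 7.44 on the ground, and Car9, a carbonic anhydrase of the cell surface, 11.09 and 11.72 against 9.57, 11.97 and 9.43. Ground replicate 2 lay between the space arrays for Pdk1 and above both for Car9, and the other ground arrays lay far below. The members on the lower side were Mt1 (-0.16), Car12 and Angptl4 (both -0.06) and Egln3 (-0.05), all with an SE as large as the difference or larger.

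In the untreated cells 27 of the 28 hypoxia-induced genes were higher in space, with a median of 1.2. Bnip3 read 11.91 in untreated space and 9.57 and 10.21 on the untreated ground, and Ero1a 11.51 against 6.57 and 8.55. The interaction was -0.19 for Bnip3 and -0.99 for Ero1a, both with a limma adjusted p of 1.0. A p of that size does not show that the treated and untreated differences are alike.

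The 21 glycolytic enzymes and glucose transporters were less separated, with 17 higher in space, a median of 0.19, 0 with an unadjusted p under 0.05 in either direction and 1 with space above all ground arrays. Without ground replicate 2 the median was 0.48, with 9 of 21 under 0.05 on the higher side and 0 on the lower. Without space replicate 1 the median was also 0.48, and without space replicate 2 it was 0.12, both with 0 under 0.05. With array weights it was 0.094. The facilitative transporter Slc2a1 read 12.19 and 12.44 in space and 10.69, 12.51 and 10.92 on the ground (0.94 ± 0.53). The neuronal-type transporter Slc2a3 read 10.76 and 10.74 against 9.80, 10.78 and 8.17 (1.17 ± 0.68). In both, ground replicate 2 read as high as space.

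Pgk1, an ATP-producing kinase of the pathway, differed by 0.79 ± 0.48, Eno2, the neuronal enolase, by 0.75 ± 0.32, and Pfkp, a phosphofructokinase, by 0.74 ± 0.52. Gapdh, at 0.09 ± 0.17, and Tpi1, at 0.09 ± 0.24, were near 0. In the untreated cells, where 19 of the 21 were higher, the median was 1.1. Relative to the mean of the 5 treated arrays, the list median was 0.00 and 0.36 in the space arrays and -0.25, 0.35 and -0.35 in the ground arrays, so ground replicate 2 equalled the higher space array.

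Most HIF subunits and sensors overlapped between the groups. Hif1a, the oxygen-regulated subunit, read 9.84 and 9.76 in space and 8.71, 9.79 and 9.30 on the ground (0.53 ± 0.31), and Arnt, its constant partner, differed by -0.09 ± 0.19. Hif1an, which hydroxylates HIF and blocks its activity, differed by -0.62 ± 0.36 and Egln2, a HIF prolyl hydroxylase, by -0.43 ± 0.34. The member with the smallest p was Hif3a, a further alpha subunit, which read 3.91 and 4.01 in space and 4.61, 4.19 and 5.29 on the ground (-0.74 ± 0.31), without overlap. Of the 9 measured genes of this list, 3 were higher and 0 had an unadjusted p under 0.05 (median -0.094).

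**Figure D2:**
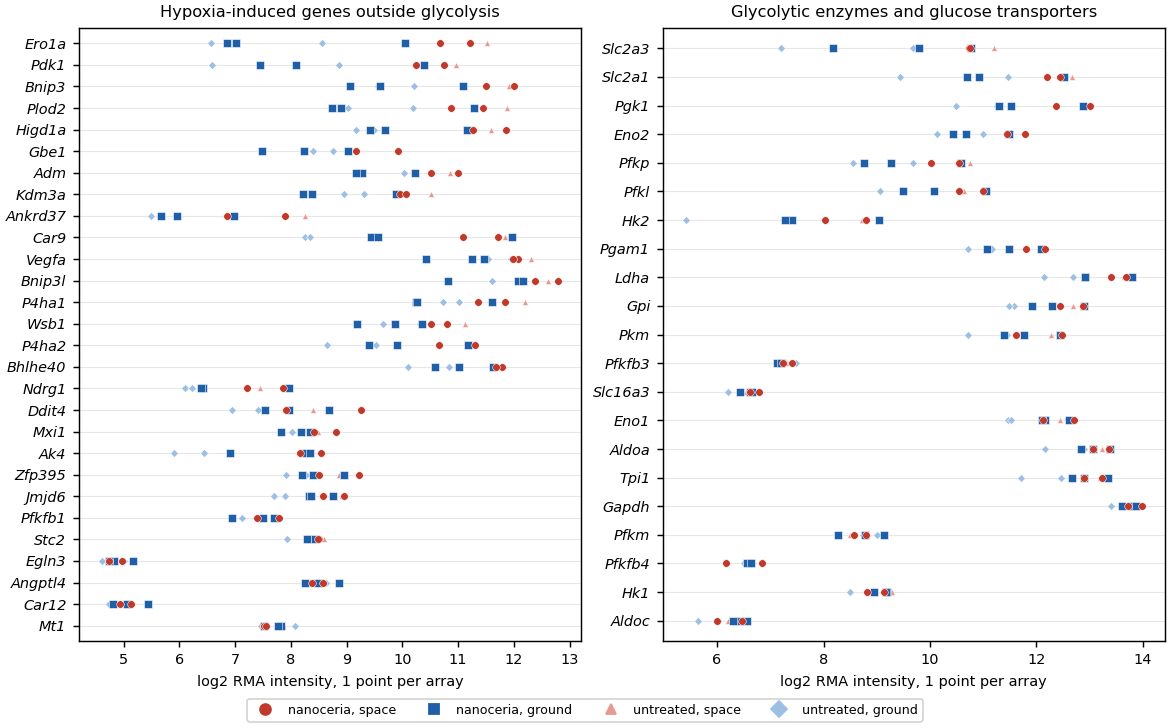
Log2 RMA intensity (horizontal axis) of 28 hypoxia-induced genes outside glycolysis (left) and 21 glycolytic genes (right), ordered by the space minus ground difference, 1 point per array. Red circles are treated cells in space, dark blue squares treated cells on the ground, and pale marks untreated cells. For Ero1a the space arrays read 10.67 and 11.21 and the ground arrays 7.02, 10.05 and 6.86, so 1 ground array lay near the space arrays, and the same split recurs down the left panel.

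On the lower side the smallest p belonged to Stk38l, a kinase of the NDR family that acts in the Hippo pathway. It read 7.11 and 7.07 in space and 8.25, 8.34 and 8.53 on the ground, without overlap, a difference of -1.28 ± 0.16 (limma adjusted p = 0.193). Anxa6, a calcium-dependent membrane-binding protein, read 10.00 and 10.11 against 11.15, 10.93 and 11.06 (-0.99 ± 0.15). Trim28, a corepressor recruited by zinc finger proteins, read 10.17 and 10.31 against 11.16, 11.15 and 11.03 (-0.87 ± 0.15). Ucp2, an inner mitochondrial membrane carrier, read 8.40 and 8.63 against 10.05, 9.31 and 9.89 (-1.24 ± 0.25). The remaining genes of the 14 with the smallest p here were Mat1a (-1.04), Lrrc15 (-1.07), Gprc5a (-0.82), Ccdc8 (-0.74), Plcd1 (-0.93), Bdh1 (-1.10), and the muscle and cytoskeletal genes Acta1, Tubb6, Atp2a1 and Myl11.

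Sarcomere genes were lower in space in 30 of 36 measured members, with a median of -0.29. The unadjusted p was under 0.05 for 0 on the higher side and 9 on the lower (25.0%, against 4.0% of all probe sets), and both space arrays lay below all ground arrays for 17 (47.2%, against 17.6%). Without ground replicate 3, the highest array for many of them, the median was -0.23 with 9 under 0.05. Leaving out space replicate 1 or 2 left 3 and 4. In bulk samples, fewer cells of a type and less RNA per cell cannot be told apart.

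Sequences upstream of 2 muscle genes are shown because serum response factor binds the CArG box and myogenic factors bind E-boxes, of which CAGCTG was searched for. Acta1 encodes skeletal alpha-actin of the thin filament (chr19:68784195-68784444, minus strand, GRCr8), and capitals mark its CArG box, with an E-box near the other end left in lower case. Atp2a1 encodes the calcium pump of fast skeletal sarcoplasmic reticulum (chr1:190475411-190475660, minus strand, GRCr8), and capitals mark its E-box. Both run 5′ to 3′ along the gene and come from RefSeq.
Acta1: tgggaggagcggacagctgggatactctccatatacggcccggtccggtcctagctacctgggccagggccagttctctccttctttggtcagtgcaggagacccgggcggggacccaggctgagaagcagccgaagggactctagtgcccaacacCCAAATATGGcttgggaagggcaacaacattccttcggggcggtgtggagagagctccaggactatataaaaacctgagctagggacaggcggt
Atp2a1: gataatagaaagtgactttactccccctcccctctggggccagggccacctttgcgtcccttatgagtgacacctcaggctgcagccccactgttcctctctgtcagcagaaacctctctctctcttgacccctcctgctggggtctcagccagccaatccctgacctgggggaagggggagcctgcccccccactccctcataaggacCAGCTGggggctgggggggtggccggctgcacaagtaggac

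A CArG box, searched on both strands, was found upstream of 4 of 31 sarcomere genes with a sequence here (12.9%) and of 1.19% of all genes. CAGCTG was found in 11 of the 31 (35.5%) and in 8 of 17 genes of the sarcoplasmic reticulum and the neuromuscular junction (47.1%), against 12.1% of all genes. Of other muscle genes searched, Myl11 held 1 CAGCTG, Chrnd held 0, and Tnni1 held 0 of either motif. These are matches of letters only.

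Acta1 read 8.69 and 9.22 in space and 10.27, 10.29 and 10.81 on the ground, lower in space by 1.50 on the log2 scale without overlap (SE 0.25, limma adjusted p = 0.22), or 2.84-fold higher on the ground. Myl11, the regulatory light chain of fast skeletal myosin, read 6.92 and 7.59 against 8.77, 8.58 and 9.63 (-1.74 ± 0.36). Tnni1, the slow skeletal troponin I, read 7.02 and 7.14 against 8.54, 7.92 and 9.49 (-1.57 ± 0.42). Ground replicate 3 was the highest array in all 3 genes.

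Other thin filament genes varied. On the lower side were Tnnt3 (fast troponin T) at -1.35 ± 0.51, Actc1 (cardiac alpha-actin) at -0.91 ± 0.27 and Tnnc1 (slow troponin C) at -0.74 ± 0.26. The slow troponin T gene Tnnt1 (-0.25 ± 0.24) and the cardiac genes Tnnt2 (-0.03 ± 0.16) and Tnni3 (0.01 ± 0.16) overlapped between the groups. The light chains Myl4 (-1.15 ± 0.38) and Myl1 (-1.04 ± 0.34) lay on the same side, and so did the Z-disc protein Csrp3 (-1.40 ± 0.29), which was named by size and is on no list. Of the heavy chains, Myh3 (embryonic, -0.32 ± 0.28) and Myh7 (slow, -0.26 ± 0.15) lay near the list median of -0.29. Myh1 (fast) had the other sign, at 0.23 ± 0.31. Des, the muscle intermediate filament protein, differed by 0.18 ± 0.17 and Myl2 by 0.01 ± 0.17.

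At the neuromuscular junction, the delta subunit of the acetylcholine receptor, Chrnd, read 5.63 and 5.72 in space and 7.55, 6.55 and 7.83 on the ground (-1.63 ± 0.37). The alpha subunit Chrna1 read 4.77 and 4.82 against 6.05, 5.58 and 6.90 (-1.38 ± 0.37), and both space arrays were the lower ones in both. Dok7, the activator of the receptor-clustering kinase Musk, differed by -0.83 ± 0.18. Musk went the other way, at 8.52 and 8.86 against 8.16, 8.35 and 7.68 (0.63 ± 0.24).

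Atp2a1 read 7.14 and 7.29 in space and 8.32, 8.21 and 8.90 on the ground (-1.27 ± 0.24, limma adjusted p = 0.238). The slow and cardiac pump Atp2a2 differed by 0.15 ± 0.17 and the calcium store protein Casq2 by -0.05 ± 0.20. Over the 21 measured genes of the sarcoplasmic reticulum and the junction, 14 were lower and the median was -0.19. An unadjusted p under 0.05 was reached by 4 on the lower side (19.0%, against 4.0% of all probe sets). On the higher side there was 1 (4.76%, against 6.08%). Both space arrays lay below all ground arrays for 9 (42.9%, against 17.6%).

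In the untreated cells 24 of 36 sarcomere genes were higher in space. Relative to the treated mean, the list stood at -0.15 in untreated space, -0.08 in untreated ground replicate 1 and -0.53 in untreated ground replicate 3. The untreated space array thus lay below the first ground array and above the second. The untreated difference was 1.27 for Acta1, 0.75 for Atp2a1, 1.17 for Chrnd, 0.40 for Myl11 and 0.04 for Tnni1, and the list median was 0.16 for the sarcomere. Atp2a1 read 7.75 in untreated space and 7.14 and 6.85 on the untreated ground, and Acta1 read 9.64 against 9.21 and 7.52. For both genes the treated ground arrays were the highest of all 8. The interaction was -2.02 for Atp2a1, -2.77 for Acta1 and -2.80 for Chrnd, each with a limma adjusted p of 1.0. Untreated ground replicate 3, whose sarcomere list median stood at -0.53 relative to the treated mean and whose mitotic one stood at -2.38, enters each of these.

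Among 13 smooth muscle contractile genes, 9 were lower in space, with a median of -0.22. On the lower side 1 was under 0.05 (7.69%, against 4.0% of all probe sets). Both space arrays lay below all ground arrays for 7 (53.8%, against 17.6%). Actg2, the enteric smooth muscle actin, read 13.31 and 13.19 against 13.65, 13.65 and 13.71 (-0.42 ± 0.14). The 16 myogenic regulators and fusion genes had a median of -0.21, with 10 lower and 2 under 0.05 on that side (12.5%, against 4.0%). These were Id3 (an inhibitor of myogenic factors, -0.63 ± 0.24) and Pax3 (a progenitor factor, -0.45 ± 0.18). The 15 cardiac factors and stress markers had a median of -0.1 and none under 0.05 in either direction. Endothelial markers also lay lower in space, with list means of 5.73 and 5.79 against 5.81 to 6.13, 9 of 12 lower and 2 of 12 above the median probe set. Their defining genes Cdh5 and Vwf read 4.71 to 5.85 in all 5 arrays, and their part in the result was not tested.

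All 13 measured tubulins were lower in space, with a median of -0.32, and both space arrays lay below all ground arrays for 10 (76.9%, against 17.6% of all probe sets). An unadjusted p under 0.05 was reached by 4 (30.8%, against 4.0%), and by 2 when either space array was left out. The beta tubulin Tubb6 read 10.32 and 10.52 in space and 11.41, 11.30 and 11.28 on the ground, without overlap (-0.91 ± 0.15, limma adjusted p = 0.227). Tubb3, the neuronal isotype, read 7.92 and 8.12 against 8.79, 8.61 and 8.60 (-0.64 ± 0.16), and Tubb2a 11.28 and 11.41 against 12.30, 11.95 and 11.76 (-0.65 ± 0.20). Tuba1b, a ubiquitous alpha tubulin, read 12.67 and 12.57 against 12.63, 12.62 and 12.85 and overlapped (-0.08 ± 0.16). The tubulins of a family share sequence, and probe sets may detect more than 1 member. In untreated cells 8 of the 13 were higher in space, with a median of 0.026. Relative to the treated mean, the tubulin list stood at -0.28 in untreated space, -0.12 in untreated ground replicate 1 and -0.98 in untreated ground replicate 3, so the untreated space array lay below the first and above the second.

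**Figure D3:**
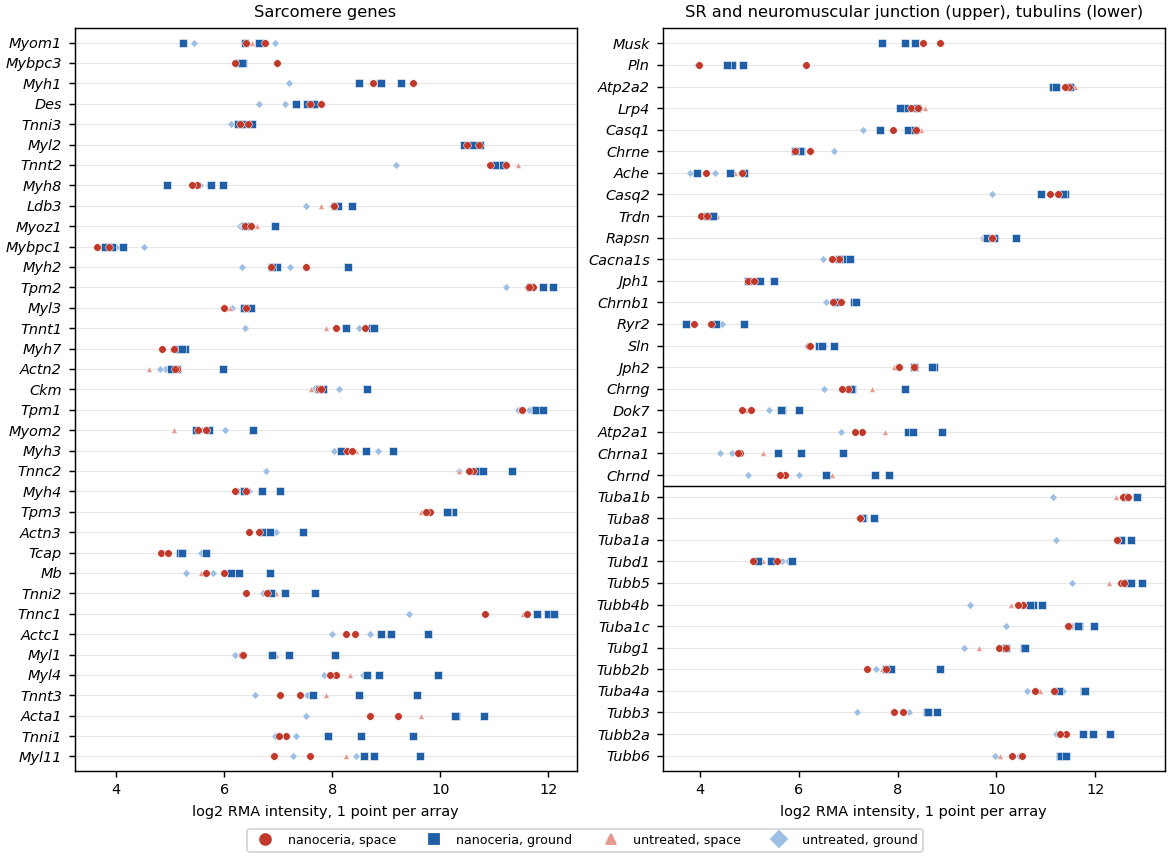
Log2 RMA intensity (horizontal axis) of 36 sarcomere genes (left), and of 21 sarcoplasmic reticulum and neuromuscular junction genes above 13 tubulins (right), each ordered by the space minus ground difference, 1 point per array. Red circles are treated cells in space, dark blue squares treated cells on the ground, and pale marks untreated cells. Toward the foot of each block the 2 red circles lie to the left of all 3 blue squares, as for Myl11 (6.92 and 7.59 against 8.58 to 9.63) and Tubb6 (10.32 and 10.52 against 11.28 to 11.41).

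Of 31 focal adhesion and actin genes, 24 were lower in space, with a median of -0.13, although Rock2 belongs to them. Ptk2, the focal adhesion kinase, was on the higher side (8.43 and 8.22 against 8.00, 7.95 and 7.62, 0.47 ± 0.18), and the integrin subunit Itgb5 on the lower (-0.42 ± 0.17). Lmna, the nuclear lamin that scales with mechanical load, read 11.67 and 11.61 against 12.39, 12.21 and 11.96 (-0.54 ± 0.18), and 5 of the 7 genes of its list were lower. Ground replicate 1 was the highest array of that list (0.40 above the treated mean), and without it 4 of the 7 were higher.

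Genes that respond to YAP or serum response factor were split, 8 higher and 11 lower, with a median of -0.014. That median was 0.018 without ground replicate 2, 0.039 without ground replicate 3 and 0.044 without space replicate 2. Srf itself read 8.61 and 8.56 against 9.38, 9.10 and 9.00 (-0.57 ± 0.17) and Ajuba, an inhibitor of Hippo kinases, differed by -0.49 ± 0.16. Tead1, the DNA-binding partner of YAP, was higher (10.72 and 10.26 against 9.59, 9.99 and 9.77, 0.71 ± 0.21), as was the Hippo kinase Lats1 (0.95 ± 0.30). Of 25 immediate early genes 16 were lower, a share near that of all genes, with 4 under 0.05 on that side (16.0%, against 4.0% of all probe sets) and 0 on the other. Leaving out either space array left 2. Junb read 7.51 and 7.93 against 8.57, 8.39 and 8.89 (-0.90 ± 0.22), Jun differed by -0.61 ± 0.19, and Dusp6, a phosphatase that reports ERK signalling, by -0.88 ± 0.21. All 3 differed the same way in the untreated cells (-0.77, -0.64 and -0.81).

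Proliferation genes were mixed. Of 31 mitotic genes, 19 were higher, with 7 under 0.05 on the higher side (22.6%) and 4 on the lower (12.9%), and the median of 0.13 changed sign with array weights, with the replicate block and without ground replicate 3. In the fit of all 8 arrays 0 were under 0.05 in either direction. Leaving out ground replicate 1 or either space array left 4 higher and 1 lower, and without ground replicate 3 there were 4 higher and 7 lower. Mki67, a marker of cycling cells, read 10.67 and 10.00 in space and 9.11, 9.44 and 9.05 on the ground (1.14 ± 0.24), and Cenpf, a kinetochore protein, 8.53 and 8.45 against 6.72, 7.25 and 7.77 (1.24 ± 0.30). Cdc20, the activator of the anaphase-promoting complex, went the other way, at 9.90 and 10.07 against 10.91, 10.38 and 10.56 (-0.63 ± 0.20). Genes of the same list thus lay clear of the ground arrays on both sides.

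The 39 replication and licensing genes had the same median as all genes (-0.064). It was 0.079 without ground replicate 1 and 0.077 without space replicate 2. Under 0.05 were 5 on the higher side (12.8%, against 6.08% of all probe sets) and 3 on the lower (7.69%, against 4.0%). The origin recognition subunits were on the higher side, with Orc2 as above, Orc3 at 0.58 ± 0.17 and Orc4 at 1.48 ± 0.49, and so were Pola1, the catalytic subunit of the priming polymerase (1.14 ± 0.20), and Rfc1, the large subunit of the clamp loader (0.83 ± 0.15). The helicase subunit Mcm7 was on the lower side (-0.62 ± 0.21). Of 25 DNA repair genes, 16 were higher, with a median of 0.11, while in untreated cells 11 were higher, with a median of -0.028. In the treated cells 7 were under 0.05 on the higher side (28.0%, against 6.08% of all probe sets). On the lower side there was 1 (4.0%, the share of all probe sets). The 7 became 2 without space replicate 1, 4 without space replicate 2 or ground replicate 1, and 3 in the fit of all 8 arrays. Of the MRN complex, which senses double-strand breaks, the measured members under 0.05 were Rad50 (8.28 and 7.96 against 6.71, 7.17 and 7.60, 0.96 ± 0.28) and Nbn (0.64 ± 0.18). The kinase Atm, which the complex activates, differed by 1.10 ± 0.37, Brca2 by 1.03 ± 0.36 and Rad18, a ubiquitin ligase of damage tolerance, by 1.30 ± 0.36. Ercc1, an excision repair nuclease subunit, was the lower one (-0.62 ± 0.17). Of 23 p53 targets and growth arrest genes, 1 was under 0.05 on each side, Mdm2 (0.61 ± 0.21) and Gadd45b (-0.42 ± 0.15). Each is 4.35% of the list, against 6.08% of all probe sets higher and 4.0% lower.

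The antioxidant genes bear on the nanoparticles that all 5 cultures received. Of 28 antioxidant enzymes, 22 were lower in space, with a median of -0.17. On the higher side 0 were under 0.05, and on the lower 2 (7.14%, against 4.0% of all probe sets). These were Ucp2, described above and counted here as a gene that limits mitochondrial superoxide, and Gpx7, a peroxidase of the endoplasmic reticulum (10.38 and 10.49 against 11.12, 10.87 and 10.77, -0.49 ± 0.17). Sod3, the extracellular superoxide dismutase, overlapped between groups (-0.64 ± 0.31), and Prdx2, a cytosolic peroxiredoxin, differed by -0.31 ± 0.15. Relative to the mean of the 5 treated arrays, the list median was -0.16 and -0.06 in space and 0.35, -0.02 and -0.04 on the ground, so ground replicate 1 was the array that stood apart. Without it the median was -0.055, with 18 of 28 lower and 1 under 0.05, and without ground replicate 3 it was -0.29 with 5. Untreated cells, which received no nanoparticles, also gave a median of -0.17, with 5 of the 28 higher in space. Relative to the treated mean, their list median was -0.14 in space and -0.16 and 0.16 on the ground.

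NRF2 switches on the response to electrophiles, and of 28 measured targets 2 were under 0.05 on the higher side (7.14%, a share near the 6.08% of all probe sets) and 0 on the lower (median -0.059, which changed sign without ground replicate 1 or space replicate 1). They were Idh1, a cytosolic source of NADPH (0.55 ± 0.19), and Gclc, the rate-limiting subunit of glutathione synthesis (9.76 and 9.89 against 8.98, 9.55 and 9.43, 0.51 ± 0.21). Hmox1, the inducible heme oxygenase, overlapped, at 10.88 and 11.31 against 10.38, 10.99 and 10.35 (0.52 ± 0.25). The untreated median of this list was -0.49, with 4 of 28 higher. Relative to the treated mean, the list stood at -0.18 in untreated space, -0.07 in untreated ground replicate 1 and 0.91 in untreated ground replicate 3, which stood apart. Among 17 iron and metal genes, 1 was under 0.05 (5.88%, near the 6.08% of all probe sets), Ireb2, an RNA-binding regulator of iron uptake (1.08 ± 0.26).

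Mitochondrial genes showed no common direction. The 42 subunits of oxidative phosphorylation had a median of -0.055 (0.067 without ground replicate 1), with Cox7b on the higher side (11.87 and 11.86 against 11.21, 11.01 and 11.04, 0.78 ± 0.15, limma adjusted p = 0.252) and Atp5f1d (-0.43 ± 0.16) and Uqcrc1 (-0.55 ± 0.21) on the lower. Apool, a cristae protein, read 7.76 and 7.81 against 6.67, 6.83 and 6.75 (1.04 ± 0.15), and the fission GTPase Dnm1l differed by 1.12 ± 0.37 while its receptor Fis1 differed by -0.50 ± 0.19. Of 23 genes of fatty acid oxidation and uncoupling, 17 were lower. Under 0.05 were 2 on the higher side (8.7%, against 6.08% of all probe sets) and 3 on the lower (13.0%, against 4.0%).

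Of 66 cytosolic ribosomal proteins, 54 were higher in space, by a small median of 0.11. The 2 under 0.05 on that side (3.03%, against 6.08% of all probe sets) were Rpl39 (0.51 ± 0.15) and Rpl5 (0.37 ± 0.14). On the other side 0 were under 0.05. Without ground replicate 1 there were 7 on the higher side. The mitochondrial ribosomal proteins leaned the other way, 31 of 42 lower with a median of -0.14, which changed sign without ground replicate 1, the highest array of that list at 0.42 above the treated mean. Translation factors were higher in 17 of 29, with 5 under 0.05 (17.2%, 1 when either space array was left out and 2 without ground replicate 1), among them Eif1a, a scanning factor (0.68 ± 0.17), and Eif5b, a subunit joining factor (0.77 ± 0.26). Of 36 splicing factors, 7 were under 0.05 on the higher side (19.4%) and 0 on the lower, with a median of 0.0098. The 7 became 2 without space replicate 1 and 1 without space replicate 2. Luc7l3 read 8.83 and 9.00 against 7.49, 7.65 and 7.85 (1.25 ± 0.17) and Rbm39 10.70 and 10.66 against 9.05, 10.00 and 9.85 (1.04 ± 0.29).

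Of 26 genes of chromatin silencing and remodelling, 6 were under 0.05 on the higher side (23.1%, against 6.08% of all probe sets). On the lower side there were 2 (7.69%, against 4.0%). The list median of 0.12 was 0.18 without space replicate 1 and 0.076 without space replicate 2. The remodelling ATPases Smarca2 (0.82 ± 0.20), Smarca5 (0.70 ± 0.20) and Chd2 (0.75 ± 0.25) were higher, and Trim28 and the histone methyltransferase Ehmt2 (-0.50 ± 0.15) were lower. A list of the 161 genes named Zfp, many of them DNA-binding repressors that recruit Trim28, had 86 higher, a median of 0.031, 30 under 0.05 on the higher side (18.6%, against 6.08% of all probe sets) and 9 on the lower (5.59%, against 4.0%). Without space replicate 1 these were 12 and 2, with a median of -0.017, and without space replicate 2 they were 20 and 2. Zfp955a read 8.04 and 8.05 against 6.61, 6.87 and 6.23 (1.47 ± 0.21), and Zfp292 8.13 and 7.84 against 6.69, 7.06 and 6.46 (1.25 ± 0.22). Of 41 Rab GTPases and escort proteins, 4 were under 0.05 higher (9.76%, against 6.08%), among them the escort protein Chm (1.21 ± 0.20). On the lower side there was 1 (2.44%, against 4.0%). The list median of 0.026 was -0.0097 without ground replicate 2, -0.049 without ground replicate 3 and -0.032 without space replicate 2.

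The chaperone and proteasome lists had medians below 0 that depended on single arrays to different degrees. Of 22 cytosolic heat shock genes, 16 were lower (median -0.2), with 3 under 0.05 on that side (13.6%, against 4.0% of all probe sets). These were the small heat shock proteins Hspb1 (10.96 and 11.03 against 11.70, 11.34 and 11.90, -0.65 ± 0.20) and Cryab (-0.45 ± 0.17) and the HSP90 cochaperone Ahsa1 (-0.66 ± 0.25). Chordc1, another HSP90 cochaperone, was on the higher side (0.69 ± 0.22). The lower count was 1 without space replicate 1 and 0 without space replicate 2, and 4 were under 0.05 on the higher side without ground replicate 2. Of 33 proteasome subunits, 23 were lower and 3 were under 0.05 on that side (9.09%, against 4.0%). All 3 were regulatory particle subunits (Psmd3, -0.59 ± 0.19, Psmd8, -0.52 ± 0.18, and Psmc5, -0.50 ± 0.19). The proteasome median of -0.12 was 0.014 without ground replicate 1, with 18 of 33 higher, and 0 were under 0.05 on the lower side when either space array was left out.

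Among 20 muscle atrophy genes, 3 were under 0.05 on the higher side (0 without space replicate 1, and 1 without ground replicate 1 or 3) and 0 on the lower. Fbxo32, the muscle ubiquitin ligase atrogin-1, read 9.50 and 9.22 in space and 7.63, 8.78 and 8.15 on the ground (1.17 ± 0.33). Mstn, the growth inhibitor myostatin, read 6.54 and 5.46 against 4.99, 5.20 and 5.30 (0.84 ± 0.32), with the space arrays far apart from each other. Traf6 differed by 0.55 ± 0.19. The 3 genes make up 15.0% of the atrophy list, against 6.08% of all probe sets. Autophagy and lysosome genes, endoplasmic reticulum chaperones and genes of the integrated stress response had medians of -0.049, -0.054 and -0.11, with 1, 0 and 0 under 0.05 on the higher side and 1, 1 and 2 on the lower. Without ground replicate 2, 6 of the 24 endoplasmic reticulum chaperones were under 0.05 on the higher side and 0 on the lower, with a median of 0.014, and that median was also above 0 without ground replicate 1 (0.023) or space replicate 1 (0.075).

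Of 33 matrix, elastic fibre and cross-linking genes, 5 were under 0.05 on the lower side (15.2%) and 1 on the higher. Without ground replicate 2 these were 2 and 5, without ground replicate 1 they were 2 and 0, and without space replicate 2 both were 0. Elastin, Eln, read 8.94 and 8.60 in space and 9.75, 9.84 and 9.07 on the ground (-0.78 ± 0.27), the latent TGF-beta binding protein Ltbp2 differed by -0.67 ± 0.17, and the elastic fibre proteins Fbln5 and Mfap4 by -0.65 ± 0.22 and -0.54 ± 0.16. The proteoglycan Vcan was higher (0.77 ± 0.28). The 12 collagen chains had a median of -0.074. Among 22 matrix proteases and inhibitors, Timp3, an inhibitor bound to matrix, read 7.77 and 7.59 against 6.61, 6.96 and 6.66 (0.94 ± 0.17), and Adamts4, an aggrecan-cleaving protease, 7.84 and 8.18 against 8.98, 8.73 and 8.68 (-0.79 ± 0.18).

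Among 32 growth factor genes, the activin subunit Inhba read 10.00 and 9.32 against 8.58, 8.27 and 8.41 (1.25 ± 0.24), Fgf7 differed by 1.13 ± 0.34 and Igf1 by 0.61 ± 0.20, while Akt1 (-0.49 ± 0.17) and Tgfb1 (-0.49 ± 0.19) were lower. Of 32 interferon and inflammatory genes, 18 were lower, with a median of -0.087. Both space arrays lay below all ground arrays for 12 (37.5%, against 17.6% of all probe sets) and above for 4 (12.5%, against 13.6%). Under 0.05 were 3 on the higher side (9.38%, against 6.08%) and 0 on the lower. The 3 were Ifit2 (0.66 ± 0.15), Mx2 (0.53 ± 0.15) and the cytokine Il6 (8.11 and 8.46 against 7.51, 7.70 and 6.88, 0.92 ± 0.27). Of 17 clock genes, 1 was under 0.05 (5.88%, near the 6.08% of all probe sets), Clock (0.97 ± 0.32). Of 21 cholesterol genes 2 were under 0.05 on each side (9.52%, against 6.08% higher and 4.0% lower). Both counts were 0 without ground replicate 1 or without ground replicate 2. The median of -0.13 became 0.092 without ground replicate 1 and -0.0016 without ground replicate 2. It was -0.28 without space replicate 1 and -0.031 without space replicate 2.

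The genes on the 2 sides differed in how much genome they span. In RefSeq's GRCr8 annotation the 14 genes with the smallest p on the higher side had a median genomic span of 96.0 kb, those on the lower side 16.3 kb, and all genes with a span 17.8 kb. The 896 genes with an unadjusted p under 0.05 and space above all ground arrays had a median span of 44.7 kb, and the 686 on the lower side 13.5 kb. Among 7791 genes with a mean log2 of at least 7, cut into 5 equal classes from shortest to longest span, the median difference was -0.16, -0.15, -0.081, 0.023 and 0.16. The share under 0.05 on the higher side went from 1.54% in the shortest class to 16.5% in the longest, and on the lower side from 8.6% to 2.89%.

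Rock2 spans 95.0 kb, Nek1 128 kb, Ift74 103 kb and Vps13a 227 kb, while Acta1 spans 3.03 kb, Trim28 6.72 kb and Tubb6 9.64 kb. The named genes did not split cleanly by span. On the higher side Cenpq (15.0 kb) and Trmt13 (15.1 kb) are short. On the lower side Stk38l (76.9 kb) and Anxa6 (55.1 kb) are long. Ero1a (35.4 kb) and Bnip3 (17.2 kb) are shorter than Rock2, Nek1, Ift74 and Vps13a. By array, the longest class stood at 0.10 and 0.082 in space and at -0.15, 0.06 and -0.056 on the ground, relative to the treated mean, and the shortest at -0.097 and -0.088 against 0.18, -0.034 and 0.0036. Ground replicate 1 was the furthest from the space arrays. In the untreated cells the classes ran from -0.069 to 0.081. No measure of RNA integrity was used here, and the part of gene span in the differences was not tested.

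**Figure D4:**
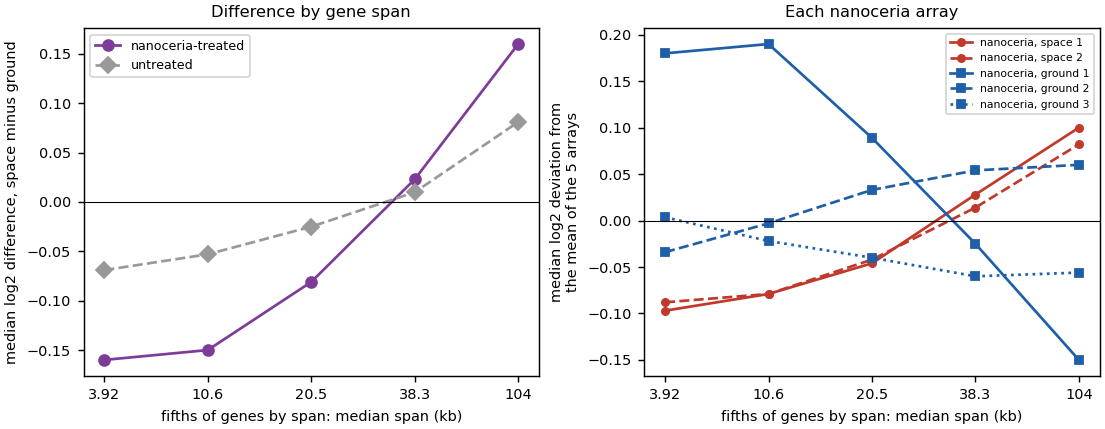
Genes with a mean log2 of at least 7 were cut into 5 equal classes by genomic span (horizontal axis, median span in kb). Left, the median log2 difference, space minus ground, in treated cells (purple circles, from -0.16 to 0.16) and in untreated cells (grey diamonds, from -0.069 to 0.081). Right, the median log2 deviation from the mean of the 5 treated arrays for each of them, where ground replicate 1 (solid blue line) runs from 0.18 down to -0.15 and both space arrays (red lines) run upward.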

How the data were processed

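Total RNA (30 ng per sample, with 500 pg of HeLa RNA as control) was hybridised to 1 rat Clariom S Pico array per sample, per the labels' protocols. The deposited table holds 1 linear intensity per probe set and array, made by the authors with RMA per the submitters' processing notes. Its version is not given in the sources used here, nor are its settings. The plan assumed log2 values, so log2 of the deposited intensity was taken, with no pseudocount. No detection measure was used.

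Space minus ground was fitted with limma 3.58.1 in R 4.3.3 on the 5 treated arrays (3 residual degrees of freedom), with Benjamini-Hochberg adjustment over 23188 probe sets. A fit of all 8 arrays gave the untreated difference and the interaction, with the lone untreated space array assumed to vary like the other groups. The median SE was 0.192. The fit was tested on simulated data. For symbols held by several probe sets (12 extra ones), the brightest was taken.

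The genes and lists (1209 of 1390 entries measured) were chosen with earlier results of these data known. Named were the 14 genes of smallest p per direction without overlap, the 8 largest per direction without overlap and with mean log2 of at least 7, up to 6 of smallest p per list, and 4 per direction of smallest interaction p, passing over uncharacterised symbols. Other list members given as values were picked for their role after the values were seen. A list of Zfp genes and the gene spans were added after the data were seen. Upstream sequences and spans are RefSeq's for GRCr8, matched by gene identifier (12435 and 15031 of 15037 genes), while the labels name Rnor_6.0 for the array.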

Additional observations from a re-analysis of the deposited data

Results flagged for a closer look

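The 16 myogenic regulators and fusion genes had a median difference of -0.21 in treated cells and 0.0061 in untreated cells, where 8 of the 16 were higher, so the untreated value has no clear direction. The untreated space array stood at -0.18 relative to the treated mean on this list, and the untreated ground arrays at -0.12 and -0.15. The 21 genes of the sarcoplasmic reticulum and the neuromuscular junction had a median of -0.19 in treated cells and 0.24 in untreated cells. Both lists are given here because the sign of the median differed, and the difference between the treated and untreated medians was not tested. For the second list, 4 of 21 genes had an unadjusted interaction p under 0.05 by limma, where 2.35% of all probe sets did, and 0 passed adjustment.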

How the results depend on the processing

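No probe set passed adjustment under any of the 14 alternatives. The 2337 probe sets with an unadjusted p under 0.05 ranged from 1146 to 2805 when 1 array was left out (1146 without space replicate 1 and 1155 without space replicate 2), the 1409 higher ones from 724 to 1581 and the 928 lower ones from 337 to 1291. With array weights, 1451 were lower. The median of centrosome and cilium genes (0.34) was 0.27 with array weights and 0.35 to 0.45 with 1 array left out. For the interaction, 362 probe sets were under 0.05 in the brighter 66.7% of probe sets, where fewer were tested, and up to 1330 with 1 array left out (1282 without untreated ground replicate 1 and 1330 without replicate 3). Of 326 named genes, 13 changed sign under some setting and 0 passed adjustment in any. Genes chosen for not overlapping cannot change sign when 1 array is left out, so the 13 is partly set by the choice. Of 50 list medians, 21 changed sign somewhere, those of hypoxia-induced, centrosome, sarcomere and tubulin genes under none of the settings run.

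The replicate numbers did not pair the samples (same-numbered arrays correlated at -0.052 and -0.013 in their deviations). With the replicate block, 1610 probe sets were higher and 1185 lower under 0.05, and 0 passed adjustment. Cyclic loess gave 1710 and 772, and arrays centred on their medians 1274 and 1189. The number of arrays, above all 2 in space, limits every value.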
